A study of Mus musculus with 60 samples.

Results

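The T cell receptor signalling machinery examined here comprised 38 genes that encode the parts between antigen recognition and the first intracellular signals of a CD8 T cell. They were listed by name from knowledge of the pathway and matched to the Ensembl identifiers of the count table, and all 38 were found among its 55414 genes. By role they were 4 CD3 chains, 2 coreceptor chains, 5 kinases, 8 adaptors, 7 effectors and 12 negative regulators and modulators. The source was CD8 T cells, read by sequencing of polyadenylated RNA, from mice of the diabetes-prone NOD strain with the OT-I transgene, which encodes a receptor for an ovalbumin peptide. All groups shared the strain, the transgene, the spleen as tissue and isolation of naive cells by negative selection, and the labels give no age. Knockout mice were Sh2b3-/-, lacking an adaptor that dampens cytokine receptor and JAK signalling, and wild-type mice were Sh2b3+/+. There were 11 knockout and 11 wild-type libraries at 0 h, without stimulation. Stimulated cells had anti-CD3 bound to the plate at 10 µg/mL and anti-CD28 in solution at 5 µg/mL for 2, 6 or 24 h, with 5 libraries of each genotype at each time. A further 4 knockout and 4 wild-type libraries came from 24 h cultures that also held a blocking antibody to IL-2 (10 µg/mL), for 60 libraries in 10 groups. The labels do not say whether libraries of a group came from separate mice or cultures, so p-values measure only the spread between these libraries, which may be technical.

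As background, the T cell receptor has no enzymatic activity of its own and signals through the CD3 and zeta chains, whose tyrosines are phosphorylated by Lck, a kinase that the CD8 coreceptor brings to the complex. Zap70 binds the phosphorylated chains and phosphorylates the scaffolds Lat and Lcp2, on which phospholipase, exchange factors and cytoskeletal regulators gather to start calcium, Ras and NF-kB signals. Phosphatases, the kinase Csk and ubiquitin ligases oppose these steps. Anti-CD3 and anti-CD28 antibodies engage the receptor complex and the costimulatory receptor without antigen.

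Library totals ran from 13987029 to 35476519 counts with a median of 17994613, and every member was tested in every comparison. Levels are in CPM, counts scaled to a common library total with TMM factors, so each value is a gene's share of its library. The targeted gene Sh2b3 averaged 13.7 ± 3.21 CPM in knockout and 80.3 ± 8.03 CPM in wild-type libraries at 0 h (SD, n = 11 each), and no knockout library reached a wild-type library of its time. The CD8 T cell markers summed to 6604 to 7772 CPM in knockout and 6680.03 to 8379.62 CPM in wild-type libraries at 0 h. Markers of monocytes and macrophages, neutrophils, NK cells and CD4 T cells summed to at most 5.44 CPM in any of the 60 libraries. B cell markers summed to at most 60.3 CPM and erythroid markers to at most 143 CPM. The 4 gamma delta T cell receptor genes summed to more, 267 to 692 CPM in knockout and 428 to 828 CPM in wild-type libraries at 0 h. The sums do not show which cells these transcripts came from, and the part of any such cells in the results was not tested. Knockout replicate 10 at 0 h and replicate 3 at 2 h and at 6 h stood apart, with 981, 943 and 972 CPM of the receptor gene Trac, against medians of 572, 453 and 467 CPM in their groups. The library numbers form 4 runs, called sets here, for which the labels give no meaning. All 2 and 6 h libraries are in set A, sets B and C hold the 24 h libraries without anti-IL-2, each of these 3 has its own 0 h libraries, and set D is all libraries with anti-IL-2. In these bulk samples, fewer cells of a type and less RNA per cell cannot be told apart.

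The proximal promoters of 3 members are given because these genes carry the main patterns below.
Cblb rose at all 3 times, Cd8a fell at all 3, and Trat1 was the member called between genotypes. Each sequence runs from 250 bases before to 50 after the RefSeq start on GRCm38.p6, 5′ to 3′ on the gene's strand. Capitals mark the core letters of NFAT sites, GGAAA or its complement TTTCC.
Cblb, chr16:52031299-52031598, plus strand: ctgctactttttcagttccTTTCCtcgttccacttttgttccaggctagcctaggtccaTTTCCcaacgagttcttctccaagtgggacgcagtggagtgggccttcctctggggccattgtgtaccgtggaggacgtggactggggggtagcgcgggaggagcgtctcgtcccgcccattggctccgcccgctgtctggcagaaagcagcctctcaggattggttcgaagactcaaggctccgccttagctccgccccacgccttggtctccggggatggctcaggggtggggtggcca
Cd8a, chr6:71373177-71373476, plus strand: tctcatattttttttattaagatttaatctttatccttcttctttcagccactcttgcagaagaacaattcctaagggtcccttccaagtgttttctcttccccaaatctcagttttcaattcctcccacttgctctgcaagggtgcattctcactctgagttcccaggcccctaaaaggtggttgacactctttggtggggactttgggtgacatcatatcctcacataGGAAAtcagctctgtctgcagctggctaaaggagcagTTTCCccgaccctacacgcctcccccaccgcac
Trat1, chr16:48772013-48772312, minus strand: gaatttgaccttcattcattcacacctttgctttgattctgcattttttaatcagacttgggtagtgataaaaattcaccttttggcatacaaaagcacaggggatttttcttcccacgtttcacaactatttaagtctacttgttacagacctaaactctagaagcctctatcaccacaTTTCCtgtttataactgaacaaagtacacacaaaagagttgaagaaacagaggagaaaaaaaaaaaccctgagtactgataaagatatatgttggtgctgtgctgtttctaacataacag
The core was found on either strand in 61.3% of all 32851 promoters of this length and in 30 of the 41 entries of the 31 members that have one. None of the 41 holds the AP-1 letters TGANTCA, which 7.81% of all promoters hold. The NF-kB letters GGGA and CC, 4 bases apart, were in 9 of the 41 and in 20.7% of all promoters, and the EGR letters GCGNGGGCG in 2 of the 41 and in 5.55% of all. All 4 motifs were searched on both strands, and a match describes the letters in this window and nothing about binding.

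Before stimulation the coreceptor chains, Lck and the CD3 chains Cd3d, Cd3e and Cd3g were among the most abundant members per kilobase of annotated exon. These lengths count all annotated exons, which can exceed the transcripts made in these cells, so the order per kb depends on the annotation. At 0 h Cd8b1 averaged 878 ± 85.4 CPM per kb in knockout and 842 ± 72.1 CPM per kb in wild-type libraries (SD, n = 11 each). It was followed by Cd8a at 393 ± 26.3 CPM per kb in knockout and 362 ± 30.99 in wild-type cells and Lck at 348 ± 39.4 CPM per kb in knockout and 347 ± 22.6 in wild-type cells. The levels of Cd8a and Lck in wild-type cells differed by less than their SDs. So did those of the next pair in wild-type cells, Cd3d at 223 ± 18.5 and Lat at 217 ± 13.6 CPM per kb. Ptprc, the CD45 phosphatase, ranked 8 of 38 per kb in both genotypes, with 148 ± 19.2 CPM per kb in knockout and 145.3 ± 18.7 in wild-type cells. Without scaling by length it was the highest of the 38, at 2710 ± 352 CPM in knockout and 2661 ± 342 CPM in wild-type cells. Cd247, the remaining chain of the receptor complex, was lower, with 47.3 ± 6.38 CPM per kb in knockout and 51.4 ± 4.54 in wild-type cells. Its exons share 56.43% of their bases with Pou2f1 on the other strand, and strand-specific counting is not stated. The level of Cd247 per kb is therefore uncertain. At the low end was Tec, a kinase of the Tec family, with 7.91 ± 1.11 CPM per kb in knockout and 7.87 ± 0.773 in wild-type cells. Lower still was Ubash3b, a phosphatase that acts on Zap70, with 6.34 ± 1.37 CPM per kb in knockout and 6.66 ± 1.03 in wild-type cells. At 24 h Cd8b1 and Lck ranked 1 and 2 in both genotypes. Txk, another kinase of the Tec family, then ranked 38, at 4.26 ± 1.18 CPM per kb in knockout and 4.05 ± 0.839 in wild-type cells (n = 5 each).

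Most of the machinery changed after stimulation, and more of its genes fell than rose at 2, 6 and 24 h in both genotypes. No culture without stimulation was sampled at 2, 6 or 24 h, so stimulation and time in culture cannot be told apart. At 2 h against 0 h, 10 members were higher and 19 lower in knockout cells, where 24.7% of all 15762 genes tested were called higher and 25.7% lower (edgeR's quasi-likelihood test, Benjamini-Hochberg adjusted p under 0.05). In wild-type cells 11 were higher and 18 lower, with 24.1% and 25.4% of all genes. At 6 h 9 were higher and 19 lower in knockout cells, with 24.2% and 21.5% of all genes, and 11 were higher and 21 lower in wild-type cells, with 23.5% and 22.7%. At 24 h 4 were higher and 27 lower in knockout cells, with 28.7% and 32% of all genes, and 5 were higher and 24 lower in wild-type cells, with 26.9% and 30.4%. In either direction 50.4%, 45.7% and 60.8% of all genes were called in knockout cells at the 3 times and 49.5%, 46.2% and 57.3% in wild-type cells. The median log2 difference of the 38 members at 2, 6 and 24 h was −0.27, −0.32 and −0.64 in knockout cells, where that of all genes was −0.094, −0.00024 and −0.11. In wild-type cells it was −0.31, −0.54 and −0.62, with −0.082, −0.020 and −0.094 over all genes. A change of at least 1.5-fold was called for 13, 17 and 19 members at the 3 times in knockout cells, where it was called for 21.9%, 15.3% and 33.1% of all genes. In wild-type cells it was called for 14, 19 and 15 members and for 20.8%, 16.6% and 28.1% of all genes. The comparisons with 0 h share the 0 h libraries and are not independent of each other. At 24 h, set B alone gave 26 called members in knockout and 30 in wild-type cells, and set C alone gave 34 and 28. Without the 3 libraries that stood apart, 29, 27 and 32 members were called at 2, 6 and 24 h in knockout cells.

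**Figure D1:**
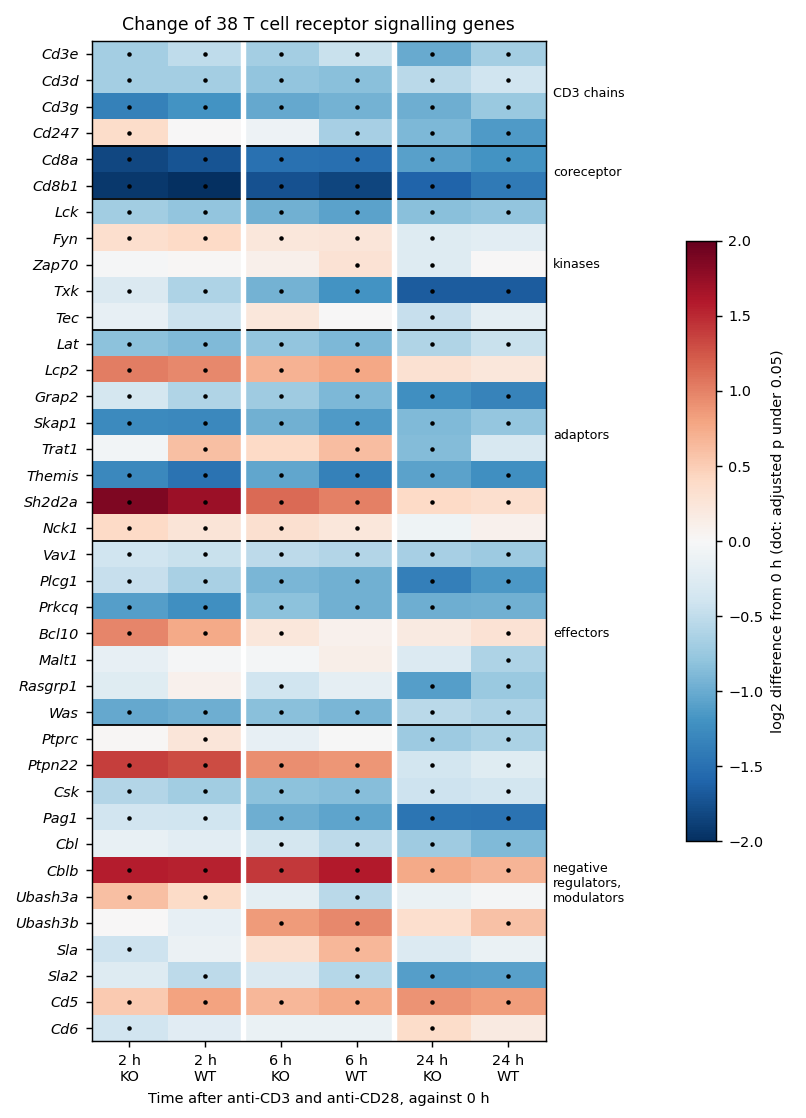
Log2 difference of each of the 38 members (down the page, grouped by role) at 2, 6 and 24 h against 0 h, with the knockout column left of the wild-type column at each time, blue for lower, red for higher and a dot where the adjusted p is under 0.05. The coreceptor chains Cd8a and Cd8b1 were blue in all 6 columns and Cblb, Sh2d2a and Cd5 were red in all 6.

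The coreceptor fell most among the receptor parts. Cd8a, the chain that binds MHC class I and brings Lck to the complex, had 414, 412, 424, 364 and 425 CPM in the 5 knockout libraries at 2 h, against 1292 to 1584 CPM with a median of 1432 at 0 h. In wild-type libraries Cd8a had 456, 366, 416, 383 and 384 CPM at 2 h, against 1143 to 1474 CPM with a median of 1303 at 0 h. No library at 2 h came near the lowest at 0 h. The log2 difference at 2 h was −1.82 ± 0.075 in knockout (SE, adjusted p = 4.38e-27) and −1.72 ± 0.075 in wild-type cells (adjusted p = 4.35e-26). The fall was smaller later, at −1.49 at 6 h and −1.09 at 24 h in knockout and −1.50 and −1.19 in wild-type cells. From 2 to 6 h Cd8a rose by 0.33 ± 0.076 in knockout and 0.22 ± 0.076 in wild-type cells (adjusted p = 0.000415 and 0.0219). Cd8b1, its partner chain, had 360.3, 373, 297, 323 and 449 CPM in knockout libraries at 2 h, against 1104 to 1493 CPM at 0 h. In wild-type libraries Cd8b1 had 323, 313, 352, 333 and 336 CPM at 2 h, against 1065 to 1429 CPM at 0 h. Here too the times were far apart. Its log2 differences at 2, 6 and 24 h were −1.93, −1.74 and −1.60 in knockout cells and −1.99, −1.84 and −1.41 in wild-type cells, all called. At 24 h its wild-type level differed by library set, with 619, 485 and 645 CPM in set C and 289 and 287 CPM in set B. Within set B alone its wild-type difference at 24 h was −2.03 and within set C alone −1.01. The CPM ratio of Cd8b1 to Cd8a was 0.911 ± 0.0681 at 0 h, 0.883 ± 0.126 at 2 h, 0.799 ± 0.180 at 6 h and 0.613 ± 0.122 at 24 h in knockout cells (SD, no test). In wild-type cells it was 0.952 ± 0.0706, 0.831 ± 0.0698, 0.788 ± 0.0641 and 0.800 ± 0.268 at the same times.

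Of the CD3 chains, which carry the activation motifs of the complex, Cd3g had the lowest log2 difference at 2 h. It had 232, 222, 177, 220.2 and 222 CPM in knockout libraries at 2 h and 430.1 to 594 CPM with a median of 526 at 0 h. In wild-type libraries Cd3g had 238, 244, 294, 215 and 273 CPM at 2 h and 454 to 618 CPM with a median of 558 at 0 h. The times did not overlap in either genotype. The differences were −1.36 ± 0.095 in knockout (adjusted p = 6.67e-18) and −1.20 ± 0.094 in wild-type cells (adjusted p = 4.36e-16). From 2 to 6 h Cd3g rose by 0.33 ± 0.098 in knockout (adjusted p = 0.00681) and 0.25 ± 0.098 in wild-type cells (adjusted p = 0.0455). It was still below 0 h at 24 h, at −0.97 in knockout and −0.74 in wild-type cells. Cd3e fell at all 3 times, with log2 differences at 2, 6 and 24 h of −0.69, −0.67 and −1.01 in knockout cells and −0.51, −0.45 and −0.68 in wild-type cells. Cd3d fell as well, with −0.67, −0.78 and −0.54 in knockout cells and −0.68, −0.84 and −0.40 in wild-type cells. Cd247, the zeta chain that docks Zap70, was not called lower at 2 h in either genotype. It averaged 328 ± 45.6 CPM in knockout cells at 2 h against 252 ± 34.01 CPM at 0 h, a rise of 0.37 ± 0.12 log2 units (adjusted p = 0.00984). Wild-type cells had 278 ± 65.3 CPM at 2 h against 274 ± 24.2 CPM at 0 h, which was not called (adjusted p = 0.983). At 6 h Cd247 was lower in wild-type cells, at −0.66 ± 0.13 (adjusted p = 1.67e-05), and not called in knockout cells, at −0.096 ± 0.12 (adjusted p = 0.565). At 24 h Cd247 was lower in both, at −0.90 ± 0.12 in knockout and −1.13 ± 0.13 in wild-type cells. Exons of Cd247 share 56.43% of their bases with Pou2f1 on the other strand, and strand-specific counting is not stated. Reads on the shared bases may therefore have been left out of Cd247 or may come from Pou2f1.

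**Figure D2:**
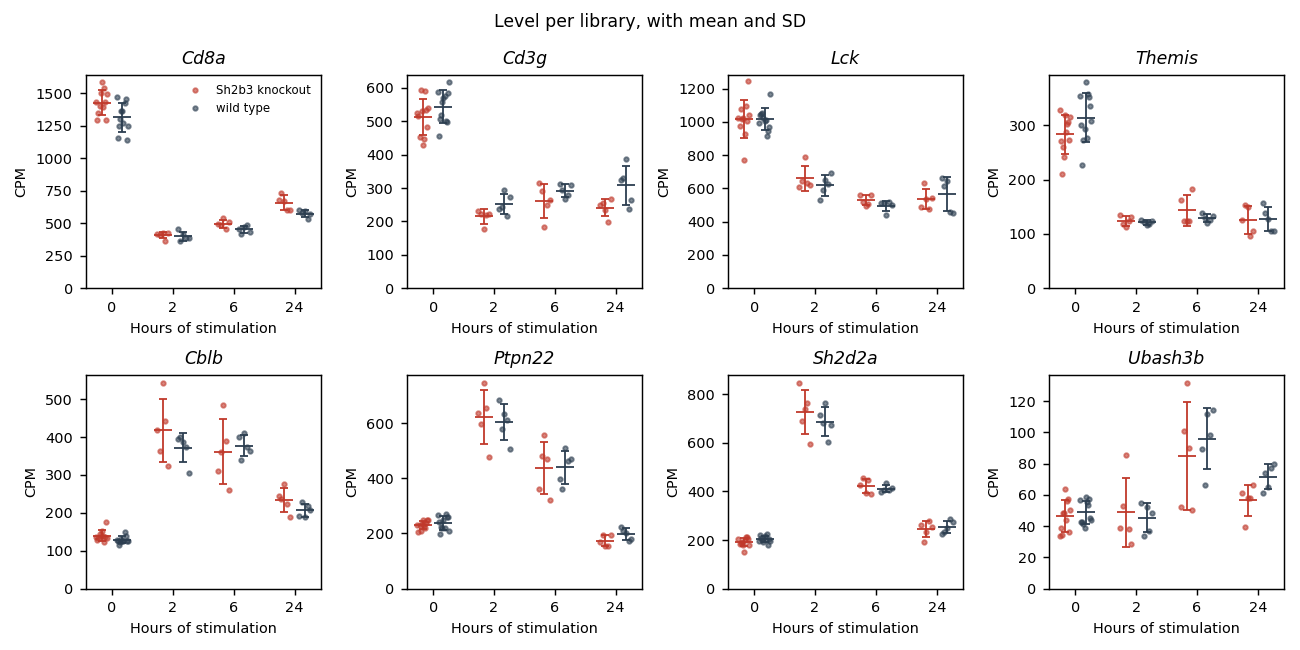
CPM per library of 8 members at 0, 2, 6 and 24 h (times evenly spaced), with knockout libraries in red left of wild-type libraries in dark blue, and the mean with SD as lines; n = 11 at 0 h and 5 at each other time. Cd8a, Cd3g, Lck and Themis were lower at 2 h than at 0 h, Cblb, Ptpn22 and Sh2d2a were higher at 2 h, and Ubash3b was highest at 6 h.

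Among the kinases, Lck, which phosphorylates the CD3 chains, and Txk fell at all 3 times in both genotypes, while Fyn rose at 2 and 6 h. Lck had 560.5, 519.8, 496, 508 and 563 CPM in knockout libraries at 6 h and 772 to 1245 CPM with a median of 1024 at 0 h. In wild-type libraries Lck had 510.4, 512, 441, 516 and 500.1 CPM at 6 h and 917 to 1169 CPM with a median of 1009.7 at 0 h. The times were separate in both genotypes. Its log2 differences at 2, 6 and 24 h were −0.69, −0.96 and −0.83 in knockout cells and −0.79, −1.06 and −0.80 in wild-type cells, lowest at 6 h. Txk had 35.8, 64.4, 53.6, 33.1 and 46.3 CPM in knockout libraries at 24 h and 138.4 to 171 CPM with a median of 155.9 at 0 h. In wild-type libraries Txk had 59.3, 43.6, 45.01, 37.1 and 36.6 CPM at 24 h and 116 to 171 CPM with a median of 147.8 at 0 h. Every library at 24 h lay far below every library at 0 h. The differences of Txk at 2, 6 and 24 h were −0.29, −0.95 and −1.66 in knockout cells and −0.62, −1.19 and −1.67 in wild-type cells, and those at 24 h had adjusted p = 1.17e-18 and 2.05e-18. Fyn, a Src-family kinase like Lck, rose at 2 h by 0.33 ± 0.092 in knockout and 0.40 ± 0.092 in wild-type cells and at 6 h by 0.22 in knockout and 0.24 in wild-type cells. At 24 h Fyn was lower in knockout cells, at −0.25, and was at −0.20 in wild-type cells without a call (adjusted p = 0.0516). Zap70, the kinase recruited to the phosphorylated chains, was called in 2 of the 6 comparisons with 0 h, at 0.29 ± 0.10 in wild-type cells at 6 h and −0.25 ± 0.10 in knockout cells at 24 h. Within set B alone the second was 0.057, near 0 and of the other sign, and a difference between the sets was not tested. Tec averaged 20.5 ± 11.2 CPM in knockout cells at 24 h and 29.6 ± 4.17 CPM at 0 h, called at −0.46 ± 0.19 (adjusted p = 0.0335). One of these 5 libraries at 24 h lay at 39.8 CPM, above every library at 0 h.

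The adaptors divided into members that fell at all 3 times, Lat, Grap2, Skap1 and Themis, and members that rose early, Lcp2, Sh2d2a and Nck1. Themis, which thymocytes need for positive selection, had 135.1, 118, 113, 125 and 130.7 CPM in knockout libraries at 2 h and 211 to 328 CPM with a median of 288 at 0 h. In wild-type libraries Themis had 127, 122, 117, 118 and 124 CPM at 2 h and 228 to 379.7 CPM with a median of 309 at 0 h. The times did not overlap. Its log2 differences were −1.29, −1.03 and −1.06 in knockout cells and −1.48, −1.34 and −1.23 in wild-type cells at 2, 6 and 24 h. Skap1, an adaptor of integrin activation, fell, with −1.27 ± 0.086 in knockout and −1.29 ± 0.086 in wild-type cells at 2 h and −0.88 in knockout and −0.77 in wild-type cells at 24 h. Lat, the membrane scaffold, averaged 354 ± 46.9 CPM at 2 h and 604 ± 65.2 CPM at 0 h in knockout cells and 338 ± 12.96 and 602 ± 37.7 CPM in wild-type cells. Its log2 differences were −0.82, −0.79 and −0.60 in knockout cells and −0.88, −0.90 and −0.44 in wild-type cells at the 3 times. Grap2, the bridge between Lat and Lcp2, had larger falls at later times, at −0.35, −0.71 and −1.23 in knockout cells and −0.60, −0.90 and −1.33 in wild-type cells. Sh2d2a, an adaptor that binds Lck, had the largest rise of any member at 2 h. It had 846, 691, 739, 765 and 596 CPM in knockout libraries at 2 h, against 152 to 213 CPM with a median of 190.1 at 0 h. In wild-type libraries Sh2d2a had 716, 683, 766, 603 and 675 CPM at 2 h, against 179.8 to 223 CPM with a median of 200.3 at 0 h. Every library at 2 h lay far above the highest at 0 h. The differences were 1.87 ± 0.080 in knockout (adjusted p = 1.81e-26) and 1.71 ± 0.080 in wild-type cells (adjusted p = 1.06e-24). From 2 to 6 h Sh2d2a fell, with −0.73 ± 0.088 in knockout and −0.70 ± 0.088 in wild-type cells, and at 24 h it was 0.41 in knockout and 0.34 in wild-type cells above 0 h. Lcp2, the cytosolic scaffold that Zap70 phosphorylates, had 449, 569, 906, 508 and 325 CPM in knockout libraries at 2 h, against 239.9 to 299 CPM at 0 h. In wild-type libraries Lcp2 had 616, 534, 561, 573 and 539 CPM at 2 h, against 252 to 309.7 CPM at 0 h. The knockout libraries at 2 h were spread more widely, with replicate 3 the highest and replicate 5 the lowest. Lcp2 rose by 1.02 ± 0.15 in knockout and 0.96 ± 0.15 in wild-type cells at 2 h and by 0.69 in knockout and 0.78 in wild-type cells at 6 h. At 24 h its differences of 0.31 in knockout and 0.23 in wild-type cells were not called. Nck1, which links the complex to the cytoskeleton, rose by 0.40 ± 0.087 in knockout and 0.25 ± 0.087 in wild-type cells at 2 h and by 0.32 in knockout and 0.23 in wild-type cells at 6 h. Trat1, a transmembrane adaptor that associates with the receptor complex, rose in wild-type cells at 2 h and 6 h and is described with the genotypes.

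Of the effectors, Prkcq, Was, Plcg1 and Vav1 fell at all 3 times and Bcl10 rose at 2 h. Prkcq, the protein kinase C of the T cell synapse, had 229, 225, 228, 240.4 and 243 CPM in knockout libraries at 2 h and 424 to 506 CPM with a median of 459 at 0 h. In wild-type libraries Prkcq had 229, 217, 246, 209 and 237 CPM at 2 h and 428 to 566 CPM with a median of 478 at 0 h. The libraries at 2 h were close together and well below those at 0 h. The difference at 2 h was −1.10 ± 0.073 in knockout and −1.22 ± 0.073 in wild-type cells, and at 24 h it was −0.98 in knockout and −0.96 in wild-type cells. Was, a regulator of actin assembly, fell, with −1.02 ± 0.076 in knockout and −0.98 ± 0.076 in wild-type cells at 2 h and was nearer to 0 h at 24 h, at −0.53 in knockout and −0.62 in wild-type cells. Plcg1, which makes the calcium and lipid second messengers, had −0.46, −0.92 and −1.36 in knockout cells and −0.66, −0.97 and −1.15 in wild-type cells at 2, 6 and 24 h. Vav1, a guanine nucleotide exchange factor, had −0.39, −0.53 and −0.67 in knockout cells and −0.45, −0.58 and −0.73 in wild-type cells at the same times. Rasgrp1, the exchange factor that activates Ras, averaged 197 ± 37.4 CPM at 24 h and 473 ± 50.6 CPM at 0 h in knockout cells, and 270.3 ± 74.7 and 489 ± 83.9 CPM in wild-type cells. It fell, with −1.11 ± 0.11 in knockout and −0.74 ± 0.11 in wild-type cells at 24 h, and at 6 h it was called in knockout cells, at −0.40, and not in wild-type cells, at −0.18. Bcl10, which joins Malt1 in a complex that starts NF-kB signalling, had 137.2, 152.4, 164, 142.5 and 126 CPM in knockout libraries at 2 h, against 48.04 to 86.3 CPM at 0 h. In wild-type libraries Bcl10 had 131.7, 118, 127, 136.9 and 141.1 CPM at 2 h, against 57.7 to 77.5 CPM at 0 h. All libraries at 2 h were above those at 0 h. Bcl10 rose by 0.97 ± 0.089 in knockout and 0.76 ± 0.090 in wild-type cells at 2 h and fell between 2 and 6 h, at −0.75 in knockout and −0.67 in wild-type cells. Malt1, its partner, was called in 1 of the 6 comparisons with 0 h, at −0.61 ± 0.13 in wild-type cells at 24 h (adjusted p = 6.93e-05), with −0.27 in knockout cells (adjusted p = 0.0659). Within set B alone the wild-type difference of Malt1 was −0.11 (adjusted p = 0.595).

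Negative regulators included Cblb and Cd5, which rose at all 3 times, and others that fell. Cblb, a ubiquitin ligase that restrains T cell activation, had 419, 362, 543, 442 and 325 CPM in knockout libraries at 2 h and 122 to 175 CPM with a median of 136.7 at 0 h. In wild-type libraries Cblb had 394, 399, 388, 373 and 305 CPM at 2 h and 114 to 149.7 CPM with a median of 126 at 0 h. All libraries at 2 h lay above all at 0 h in both genotypes. The log2 differences at 2, 6 and 24 h were 1.57, 1.41 and 0.76 in knockout cells and 1.53, 1.59 and 0.68 in wild-type cells. Cbl, the related ligase, fell instead, at −0.35 in knockout and −0.53 in wild-type cells at 6 h and −0.71 ± 0.097 in knockout and −0.89 ± 0.098 in wild-type cells at 24 h. The CPM ratio of Cblb to Cbl was 0.349 ± 0.0424, 1.12 ± 0.292, 1.18 ± 0.380 and 1.01 ± 0.136 at 0, 2, 6 and 24 h in knockout cells. In wild-type cells it was 0.307 ± 0.0190, 0.994 ± 0.127, 1.29 ± 0.117 and 0.972 ± 0.229, so both genotypes had more Cblb per Cbl at every time after stimulation than at 0 h. Ptpn22, a phosphatase of Lck and Zap70, had 637, 599, 747, 654 and 476 CPM in knockout libraries at 2 h, against 206 to 251 CPM at 0 h. In wild-type libraries Ptpn22 had 686, 580.4, 632, 613 and 508 CPM at 2 h, against 198 to 271 CPM at 0 h. It rose by 1.39 ± 0.10 in knockout and 1.30 ± 0.10 in wild-type cells at 2 h and by 0.93 in knockout and 0.89 in wild-type cells at 6 h. At 24 h Ptpn22 was instead below 0 h, at −0.36 in knockout (adjusted p = 0.00177) and −0.24 in wild-type cells (adjusted p = 0.0357). Within set C alone the wild-type value was −0.073 (adjusted p = 0.569). Cd5, a surface receptor that dampens signalling, had 612, 327, 517, 575 and 571 CPM in knockout libraries at 24 h, against 207 to 343 CPM at 0 h. In wild-type libraries Cd5 had 448, 548, 555, 635 and 645 CPM at 24 h, against 291 to 363 CPM at 0 h. One knockout library overlapped with 0 h and no wild-type library did. The log2 differences of Cd5 were 0.52, 0.67 and 0.89 in knockout cells and 0.80, 0.75 and 0.83 in wild-type cells at 2, 6 and 24 h. Cd6, a receptor of the same family, had −0.38, −0.14 and 0.36 in knockout cells and −0.23, −0.13 and 0.17 in wild-type cells, called in knockout cells at 2 h as lower and at 24 h as higher. Csk, the kinase that inhibits Lck, fell at all 3 times, with −0.59, −0.81 and −0.42 in knockout cells and −0.69, −0.86 and −0.37 in wild-type cells. Pag1, the membrane anchor of Csk, fell too, with −0.39, −0.98 and −1.46 in knockout cells and −0.40, −1.05 and −1.47 in wild-type cells. Ptprc fell at 24 h, at −0.73 ± 0.085 in knockout and −0.63 ± 0.084 in wild-type cells, after a rise of 0.24 in wild-type cells at 2 h, where knockout cells had 0.021 (adjusted p = 0.859). Sla2, an adaptor that promotes receptor degradation, fell at 24 h, with −1.10 ± 0.13 in knockout and −1.09 ± 0.13 in wild-type cells, and 23.59% of its exon bases are shared with Rab5if on the other strand. Its relative Sla rose between 2 and 6 h, by 0.73 ± 0.15 in knockout and 0.77 ± 0.15 in wild-type cells.

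The related phosphatases Ubash3a and Ubash3b, both suppressors of receptor signalling, moved in opposite directions between 2 and 6 h. Ubash3a had 115, 80.9, 55.8, 104 and 119.7 CPM in knockout libraries at 6 h, against 168, 166, 135.2, 191 and 199 CPM at 2 h. In wild-type libraries Ubash3a had 80.2, 82.8, 62.1, 77.5 and 70.3 CPM at 6 h, against 108, 145.5, 149.7, 161 and 166 CPM at 2 h. The times did not overlap, and Ubash3a fell, with −0.80 ± 0.12 in knockout (adjusted p = 2.19e-07) and −0.93 ± 0.12 in wild-type cells (adjusted p = 9.94e-09). Ubash3b had 52.2, 101, 131.6, 89.7 and 49.99 CPM in knockout libraries at 6 h, against 38.7, 53.05, 85.2, 38.1 and 28.6 CPM at 2 h. In wild-type libraries Ubash3b had 89.3, 66.1, 112, 98.6 and 114 CPM at 6 h, against 54.7, 33.9, 52.1, 36.9 and 48.3 CPM at 2 h. The times overlapped in knockout and not in wild-type cells, and Ubash3b rose by 0.85 ± 0.21 in knockout (adjusted p = 0.00158) and 1.13 ± 0.22 in wild-type cells (adjusted p = 4.97e-05). Knockout replicate 3 at 6 h, which stood apart by Trac, had the lowest Ubash3a and the highest Ubash3b of its group. Between 2 and 6 h, 6 members were higher and 11 lower in knockout cells, where 17.2% and 14.6% of all genes were. In wild-type cells 5 were higher and 11 lower, with 16% and 15.7% of all genes and 31.8% and 31.7% in either direction in the 2 genotypes. A change of at least 1.5-fold was called for 0 members in knockout cells and for Ubash3a and Ubash3b in wild-type cells, against 4.95% and 4.56% of all genes.

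Of a list of 64 other genes of the pathway, 63 were tested over time and most were called. At 2 h 23 of them were higher and 29 lower in knockout cells and 22 were higher and 29 lower in wild-type cells, 82.5% and 81% of those tested, against 50.4% and 49.5% of all genes. At 6 h 12 were higher and 35 lower in knockout cells and 13 were higher and 36 lower in wild-type cells, 74.6% and 77.8% of those tested, against 45.7% and 46.2% of all genes. At 24 h 9 were higher and 37 lower in knockout cells and 9 were higher and 39 lower in wild-type cells, 73% and 76.2% of those tested, against 60.8% and 57.3% of all genes. Among the rises of small adjusted p at 2 h in wild-type cells were Orai1 by 2.03 ± 0.15, the pore of the calcium channel, and Sh3bp2 by 1.83 ± 0.19, an adaptor protein. The falls of smallest adjusted p were Ppp3cc at −2.61 ± 0.14, a calcineurin catalytic subunit, Rac2 at −1.34 ± 0.079, a small GTPase, and Dgkz at −1.15 ± 0.073, a kinase that removes diacylglycerol. At 24 h in wild-type cells they were Sit1 at −2.82 ± 0.18, a transmembrane adaptor, Itpr3 at −1.56 ± 0.12, an IP3 receptor, and Rasal3 at −1.45 ± 0.11, a Ras GTPase-activating protein.

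Most members called with time were called in both knockout and wild-type cells, as were most of all genes called. At 2 h they shared 9 called higher, 90.0% of those in knockout and 81.8% of those in wild-type cells, and 17 called lower, 89.5% and 94.4%. At 6 h they shared 8 higher, 88.9% and 72.7%, and 18 lower, 94.7% and 85.7%. At 24 h they shared 3 higher, of 4 in knockout and 5 in wild-type cells, and 23 lower, 85.2% and 95.8%. Of all genes called higher at 2, 6 and 24 h, 85.4%, 83% and 84.6% of those in knockout cells and 87.3%, 85.6% and 90.3% of those in wild-type cells were shared. Of all genes called lower, 82.6%, 83.9% and 80% of those in knockout cells and 83.8%, 79.4% and 84.4% of those in wild-type cells were shared. No member was called in opposite directions at any of the 3 times. In the test of the difference itself, edgeR's interaction of genotype and time, 0 members were called at 2, 6 or 24 h, where 0%, 0% and 0.14% of all genes were, and DESeq2 also called 0 at each. At an unadjusted p under 0.05 the change of 2 members was more positive and of 2 more negative in knockout cells at 2 h, with 3 and 0 at 6 h and 1 and 4 at 24 h, where 6.35%, 5.06% and 12% of all genes reached that p. The smallest unadjusted p was that of Cd247 at 6 h, whose change was more positive in knockout cells by 0.57 ± 0.16 (p = 0.000921, adjusted p = 0.631).

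Between genotypes at a given time, 1 member was called in 1 of 5 comparisons. That was Trat1 at 2 h, with 64.2, 56.4, 54.1, 59.3 and 35.5 CPM in the 5 knockout libraries and 110, 114, 95.5, 99.6 and 75.8 CPM in the 5 wild-type libraries. The groups did not overlap. Trat1 was lower in the knockout, with a log2 difference of −0.89 ± 0.14 (adjusted p = 0.0498), where 0.0647% of 12372 genes were called, 0.0323% as lower, and 0.0162% by the rule of at least 1.5-fold. Leaving out any 1 of 7 of the 10 libraries (wild-type replicates 1 to 4, knockout replicates 1, 2 and 4) raised the adjusted p to between 0.0782 and 0.171. Without wild-type replicate 5 or knockout replicate 3 or 5 it was 0.013, 0.0413 and 0.00452. Without knockout replicate 3 Txk was also called, as higher, and 45 of 12598 genes were called. With DESeq2 size factors the adjusted p of Trat1 was 0.0532. DESeq2 itself called Trat1 lower and Txk higher at 2 h, and 122 of 12372 genes. In edgeR 3 members were higher and 4 lower at an unadjusted p under 0.05, which 13.1% of all genes reached. At 6 h Trat1 had 84.2, 78.9, 63.5, 76.9 and 49.5 CPM in knockout and 102, 109.7, 104, 78.5 and 95.4 CPM in wild-type libraries, which overlapped, a difference of −0.49 ± 0.14 (adjusted p = 0.696). At 24 h it had 19.5, 37.5, 25.8, 14.4 and 20.1 CPM in knockout and 69.2, 44.1, 40.6, 25.2 and 26.2 CPM in wild-type libraries, which also overlapped. The difference was −0.78 ± 0.19 (adjusted p = 0.113), with −0.58 in set B alone and −0.90 in set C alone. It was −0.23 ± 0.069 at 0 h (adjusted p = 0.128) and −0.15 ± 0.15 with anti-IL-2 at 24 h (adjusted p = 0.833). Against 0 h, Trat1 rose in wild-type cells by 0.60 ± 0.17 at 2 h, while knockout cells had −0.052 ± 0.17 (adjusted p = 0.822). The difference between these changes, −0.65 ± 0.22, was not called (adjusted p = 0.561).

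Rasgrp1 had negative differences at 2, 6 and 24 h, none of them called by edgeR. It had 466, 425, 526, 474 and 349.8 CPM in knockout and 643, 619, 591, 549 and 484 CPM in wild-type libraries at 2 h, a difference of −0.37 ± 0.10 (adjusted p = 0.209). At 6 h it had 416, 389, 365, 373 and 394 CPM in knockout and 471, 458, 504, 426 and 473 CPM in wild-type libraries, a difference of −0.29 ± 0.077 (adjusted p = 0.683). The groups overlapped at 2 h and not at 6 h. At 24 h the values were 189, 244, 217, 143.2 and 193 CPM in knockout and 346, 323, 303, 198 and 183 CPM in wild-type libraries, a difference of −0.43 ± 0.11 (adjusted p = 0.14). The 3 wild-type libraries of set C were the high ones. At 0 h the difference of Rasgrp1 was −0.045 ± 0.053.

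**Figure D3:**
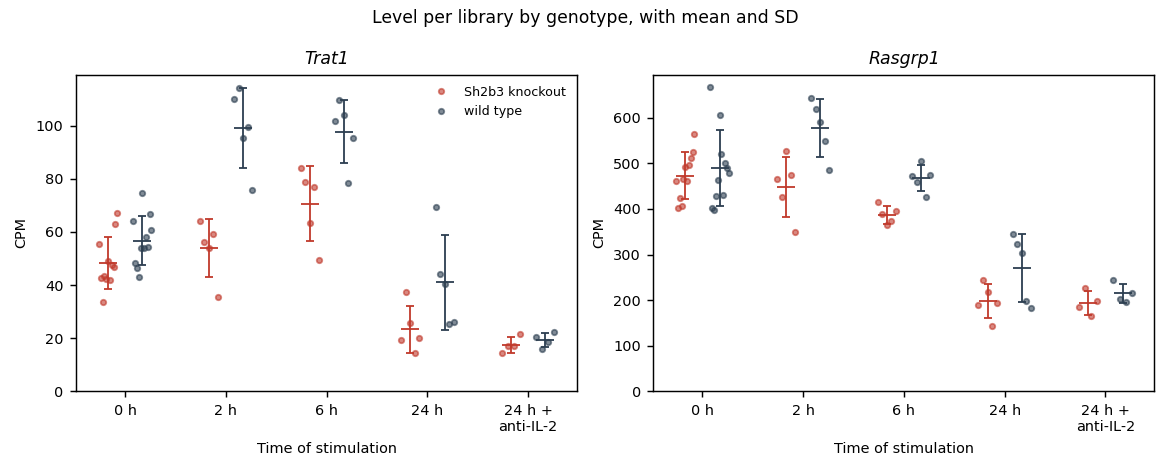
CPM per library of Trat1 (left) and Rasgrp1 (right) at each time and with anti-IL-2, with knockout libraries in red left of wild-type libraries in dark blue, and the mean with SD as lines; n = 11 at 0 h, 5 at 2, 6 and 24 h and 4 with anti-IL-2. At 2 h the knockout libraries of Trat1 lay between 35.5 and 64.2 CPM, all below the lowest wild-type library at 75.8 CPM.

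At 0 h 0 members were called between genotypes by edgeR, where 0.633% of 12802 genes were, and the 38 log2 differences ran from −0.23 to 0.12. At an unadjusted p under 0.05 3 were higher and 7 lower, and 10.4% of all genes reached that p. At 6 h 0 were called, where 0.0306% of 13082 genes were, and DESeq2 called 0 at both 0 and 6 h. At 6 h 2 were higher and 3 lower at an unadjusted p under 0.05, which 5.68% of all genes reached. The largest positive difference at 6 h was that of Cd247, 0.41 ± 0.15 (adjusted p = 0.795). At 24 h 0 were called by edgeR, where 0.372% of 12906 genes were. There 10 of 38 differences lay above 0 and their median was −0.12, against 0.00017 over all genes. At an unadjusted p under 0.05 2 were higher and 9 lower at 24 h, and 11.7% of all genes reached that p. DESeq2 called 3 lower, Trat1, Rasgrp1 and Zap70, at adjusted p = 0.0153, 0.0301 and 0.0252, and 231 of 12906 genes. Zap70 had 292, 279, 279, 272 and 319 CPM in knockout and 327, 329, 347, 399 and 353 CPM in wild-type libraries at 24 h, which did not overlap, a difference of −0.29 ± 0.082 (edgeR adjusted p = 0.164). Without knockout replicate 5, edgeR called 4 members lower at 24 h, Cd3e at −0.37, Cd3g at −0.45, Trat1 at −0.89 and Rasgrp1 at −0.53. Over all genes that fit called 361 of 13142, against 48 of 12906 with all libraries. At 24 h the sum of 4 gamma delta T cell receptor genes also differed, at 97.1 to 195 CPM with a median of 147.4 in knockout and 212 to 313 CPM with a median of 275 in wild-type libraries, and their part in these values was not tested. With anti-IL-2, 0 members were called between genotypes by edgeR, where 0.35% of 13441 genes were, with 2 higher and 4 lower at an unadjusted p under 0.05, which 9.48% of all genes reached. Without knockout replicate 2 edgeR called 1 there, Cd3g, as lower, and 76 of 13809 genes. DESeq2 with all libraries called Cd8a higher and Cd3g and Zap70 lower, for which edgeR gave 0.20 ± 0.058, −0.25 ± 0.066 and −0.23 ± 0.058. Over all genes DESeq2 called 141 of 13441 with anti-IL-2. Of the other pathway genes, 0 were called in any of the 5 genotype comparisons. At an unadjusted p under 0.05, 1, 7, 0, 0 and 2 of them were higher and 8, 2, 1, 5 and 4 lower at 0, 2, 6 and 24 h and with anti-IL-2, where 10.4%, 13.1%, 5.68%, 11.7% and 9.48% of all genes reached that p.

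The blocking antibody to IL-2, the cytokine that activated T cells make, went with higher Cd5, Cd6 and Fyn and lower Prkcq and Cd247 at 24 h in both genotypes. In knockout cells 4 members were higher and 3 lower with anti-IL-2, where 2.81% of 14778 genes were higher, 2.81% lower and 5.63% called in either direction. In wild-type cells 3 were higher and 8 lower, where 2.77% of all genes were higher, 3.16% lower and 5.93% called in either direction. A change of at least 1.5-fold was called for 0 members in either genotype and for 0.298% of all genes in knockout and 0.142% in wild-type cells. In knockout cells 4 members were called without replicate 2 of the cultures without anti-IL-2, and 3 without replicate 1, 3 or 4 of those with it. Over all genes these fits called 606 and then 489, 596 and 446, against 832 with all libraries. In wild-type cells 4, 7 and 4 were called without replicates 1, 2 and 3 of the cultures without anti-IL-2, and 4, 6, 3 and 5 without each of the 4 replicates with it. There the calls over all genes were 507, 687 and 493 and then 414, 433, 384 and 440, against 877 with all libraries. All libraries with anti-IL-2 are set D, so the antibody and the library set cannot be told apart. Against set B alone 7 members were called in knockout and 8 in wild-type cells, with 9.67% and 5.72% of all genes. Against set C alone 25 were called in each genotype, with 14.3% of all genes in knockout and 23.2% in wild-type cells. Values against set B or set C alone are given beside the members. Cd6 had 754, 751, 751 and 744 CPM in knockout libraries with anti-IL-2 and 652, 440.2, 601, 551 and 521 CPM without. In wild-type libraries Cd6 had 789.6, 782, 804 and 695 CPM with anti-IL-2 and 456, 563, 532, 562 and 515 CPM without. The groups did not overlap in either genotype. Cd6 rose by 0.44 ± 0.095 in knockout (adjusted p = 0.00718) and 0.55 ± 0.095 in wild-type cells (adjusted p = 0.00158). The differences of Cd6 were 0.47 in knockout and 0.52 in wild-type cells against set B and 0.40 in knockout and 0.55 in wild-type cells against set C. Cd5 had 814, 746, 761 and 772 CPM with anti-IL-2 and 612, 327, 517, 575 and 571 CPM without in knockout libraries. In wild-type libraries Cd5 had 791, 818, 845 and 771 CPM with anti-IL-2 and 448, 548, 555, 635 and 645 CPM without. The groups were again separate. Cd5 rose by 0.58 ± 0.13 in knockout (adjusted p = 0.00979) and 0.51 ± 0.13 in wild-type cells (adjusted p = 0.0221), with 0.42 in knockout and 0.34 in wild-type cells against set B. Fyn rose by 0.28 ± 0.079 in knockout and 0.28 ± 0.079 in wild-type cells (adjusted p = 0.0398 and 0.0381). Against set B alone Fyn was at 0.27 in knockout and 0.30 in wild-type cells. Ubash3b was called in knockout cells, at 0.53 ± 0.12 (adjusted p = 0.0111), and not in wild-type cells, at 0.36 ± 0.12 (adjusted p = 0.0831), and the knockout value against set B alone was 0.38. Prkcq had 148.3, 180.1, 123 and 164 CPM with anti-IL-2 and 209, 267, 222, 173 and 207 CPM without in knockout libraries. In wild-type libraries Prkcq had 150.3, 129.9, 141.7 and 150.4 CPM with anti-IL-2 and 279.5, 238, 269, 206 and 191 CPM without. The groups overlapped in knockout and not in wild-type cells. Prkcq fell, with −0.49 ± 0.13 in knockout (adjusted p = 0.0339) and −0.73 ± 0.13 in wild-type cells (adjusted p = 0.00252). Against set B alone Prkcq was at −0.32 in knockout (adjusted p = 0.0747) and −0.47 in wild-type cells (adjusted p = 0.0101). Cd247 fell, with −0.82 ± 0.20 in knockout and −0.82 ± 0.20 in wild-type cells. Against set B alone Cd247 was at −0.55 in knockout and −0.29 in wild-type cells, the wild-type value without a call (adjusted p = 0.174). Txk was called in knockout cells, at −0.75 ± 0.19, and not in wild-type cells, at −0.64 ± 0.19 (adjusted p = 0.0546). Against set B alone Txk was at −0.53 in knockout cells and lost its call (adjusted p = 0.0515).

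**Figure D4:**
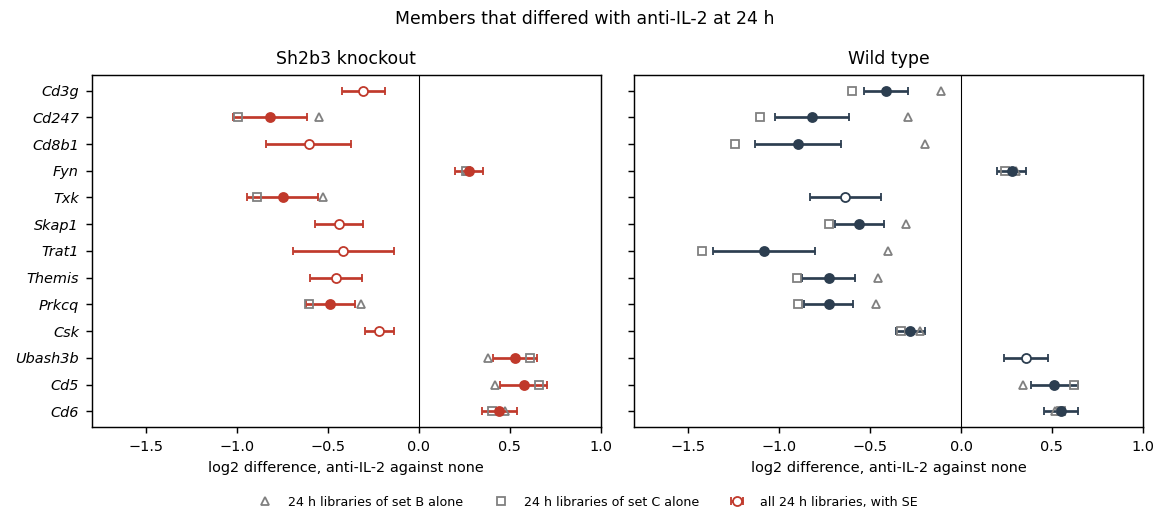
Log2 difference with SE between 24 h cultures with and without anti-IL-2 for the 13 members called in at least 1 genotype, knockout left and wild type right, with filled points where the adjusted p is under 0.05 and grey triangles and squares for called members set against the 24 h libraries of set B or set C alone. Cd5, Cd6 and Fyn lay above 0 against either set, while Cd8b1, Trat1 and Cd247 in wild type lay nearer 0 against set B than against set C.

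In wild-type cells the other members called lower with anti-IL-2 were Themis at −0.73 ± 0.14, Skap1 at −0.56 ± 0.13, Trat1 at −1.08 ± 0.28, Cd8b1 at −0.90 ± 0.24, Csk at −0.28 ± 0.079 and Cd3g at −0.41 ± 0.12. Against set B alone Themis stayed called, at −0.46 (adjusted p = 0.00609). The calls of the other 5 did not hold there, with Skap1 at −0.30, Trat1 at −0.40, Cd8b1 at −0.20, Csk at −0.23 and Cd3g at −0.11. Cd8b1 had 258, 239.5, 243 and 260.4 CPM with anti-IL-2 in wild-type libraries, next to the 2 libraries of set B at 289 and 287 CPM and below the 3 of set C. The difference of the antibody's effect between genotypes was called for 0 members by edgeR, where 0% of all genes were, and for 0 by DESeq2. Only Ptpn22 had an unadjusted p under 0.05 there, with 0.32 ± 0.15 (p = 0.0485, adjusted p = 1). For Trat1 that difference was 0.67 ± 0.39 (adjusted p = 1), so its call in wild-type cells alone does not show that the genotypes differed. Among the other pathway genes, 0 were higher and 4 lower in knockout cells and 0 higher and 8 lower in wild-type cells. These were 6.35% and 12.7% of the 63 tested, against 5.63% and 5.93% of all genes. In both the smallest adjusted p was that of Sh2d1a, the adaptor of SLAM receptors, at −2.13 ± 0.30 in knockout and −1.74 ± 0.29 in wild-type cells. Values against set B or set C alone are not given for it, and the antibody and the library set cannot be told apart.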

How the data were processed

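The deposited table holds raw counts per gene for 60 libraries of polyadenylated RNA, and 0 of its columns belong to other samples. The submitters' processing notes name GRCm39 as the build and list STAR 2.7.9a, Subread featureCounts 2.0.1, SAMtools, Picard 2.42.2 and FastQC 0.119.9. Per the labels, RNA came from a Qiagen or a Zymo kit, with no record of which library had which, and neither strand-specific counting nor the annotation is given in the sources used here. Names and exon lengths came from GENCODE M21, another build than the counts, so no coordinates come from it, and promoter sequences came from RefSeq on GRCm38.p6, where 31 of 38 members had an entry.

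Counts entered edgeR 4.0.16 in R 4.3.3 (filterByExpr minimum count 10, TMM, robust quasi-likelihood F test, limma 3.58.1) over all genes passing the filter, with Benjamini-Hochberg adjustment over them and a call at adjusted p under 0.05. A second rule tested for a change of at least 1.5-fold. Genotypes were compared within each time, with library set as a term at 0 and 24 h. Anti-IL-2 and its interaction were fitted on the 18 libraries at 24 h without a set term, and times and genotype by time on the 52 libraries without anti-IL-2 with the set as a term. CPM values use TMM factors over all 60 libraries. Errors of levels are SD and of log2 differences SE. Calling was tested on simulated data. The members, the lists and the comparisons were chosen with earlier results of these data known. Every member is named; those called between genotypes or with anti-IL-2, and the 12 largest called with time, have values, and other pathway genes are named by smallest adjusted p, at most 3 a direction; a gene that this rule would name is not reported here. The alternatives were DESeq2 1.42.0 size factors and Wald test, no filter on low counts, no set term, single library sets, a replicate block, and leaving out libraries. Set B or C alone for 24 against 0 h was chosen after seeing the data.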

Additional observations from a re-analysis of the deposited data

Results flagged for a closer look

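In groups of 4 to 10 libraries, a single library of a member was set apart where its gap to the nearest other library was large against the range of the group. This held for 20 of 304 combinations of member and group, 6.58%, and chance alone does so in about 1 in 20 groups. Knockout replicate 5 at 2 h was set apart for 4 members, with the highest Tec at 47.0 CPM and the lowest Malt1, Cd5 and Cd6 at 147, 230 and 226 CPM. Knockout replicate 3 at 2 h had the lowest Cd3g at 177 CPM and the highest Lck and Vav1 at 791 and 246 CPM, and knockout replicate 4 at 2 h had the lowest Cd3d and Cd8a at 243 and 364 CPM. At 6 h knockout replicate 3 had the lowest Was at 87.2 CPM, and at 24 h knockout replicate 2 had the highest Tec at 39.8 CPM. With anti-IL-2, knockout replicate 2 had the highest Plcg1 at 170 CPM, replicate 3 the lowest Cblb at 202 CPM, replicate 4 the lowest Csk at 270 CPM, and wild-type replicate 1 the highest Tec at 17.5 CPM. In wild-type cells at 2 h the lowest values were Lat at 315 CPM in replicate 2, Cbl at 329 CPM in replicate 4 and Cblb at 305 CPM in replicate 5. At 6 h replicate 3 had the lowest Lck at 441 CPM and replicate 4 the highest Nck1 at 60.4 CPM.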

How the results depend on the processing

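Member values were followed under other settings where the member was called in the main fit. Between genotypes and in interactions, those with an unadjusted p under 0.05 were followed too. A call gained over time or with anti-IL-2 is therefore missing from the next counts, though not from the numbers of called members below. Of 1969 such values under other settings, 1750 kept direction and call, 201 lost the call and 17 gained one. Only 1 reversed, Zap70 in knockout cells at 24 h, at 0.057 in set B alone. These settings include the 1.5-fold rule, which is stricter than the main rule. Of 2193 values followed in the same way with 1 library or the 3 that stood apart left out, 141 lost and 6 gained a call. Among these 0 reversed, and gains over time or with anti-IL-2 are again not counted. The cause of the shifts was not tested. Requiring 1.5-fold left 13, 17, 19 and 0 called members in knockout cells at 2, 6 and 24 h against 0 h and 6 against 2 h, 14, 19, 15 and 2 in wild-type cells, and 0 between genotypes at 2 h and with anti-IL-2 in both genotypes. Without the filter on low counts, calls between genotypes were 1 at 0 h, 4 at 2 h, 2 at 24 h and 1 with anti-IL-2, 1 in each interaction with time, and 6 in wild-type cells for anti-IL-2. DESeq2 called 2 members between genotypes at 2 h, 3 at 24 h and 3 with anti-IL-2, and 12 for anti-IL-2 in knockout cells, and its size factors left 0 between genotypes at 2 h. Over all genes DESeq2 called 122, 231 and 141 between genotypes and 1270 for anti-IL-2 in knockout cells, and its size factors left 4 at 2 h. Against set C alone anti-IL-2 gave 25 calls in each genotype, with 14.3% of all genes called in knockout and 23.2% in wild-type cells. Over time, each library at 2, 6 or 24 h was left out in turn, and the 3 that stood apart were left out together. No 0 h library was left out singly there. In knockout cells this gave 26 to 29, 27 to 32, 29 to 32 and 15 to 20 calls at 2, 6 and 24 h against 0 h and 6 against 2 h. In wild-type cells it gave 28 to 30, 31 to 32, 28 to 30 and 13 to 18. All interactions had 0 calls when libraries were left out. Between genotypes, leaving out each library in turn gave 0 to 2 calls at 2 h, 0 at 6 h, 0 to 4 at 24 h and 0 to 1 with anti-IL-2. At 0 h only knockout replicate 10 was left out, which gave 0. Over all genes the calls between genotypes were 3 to 63 at 2 h, 8 to 361 at 24 h and 10 to 76 with anti-IL-2. Anti-IL-2 gave 3 to 10 calls in knockout and 3 to 13 in wild-type cells, with 446 to 946 and 384 to 1325 over all genes. The labels do not say that library numbers pair the samples. Within a set, libraries at different times whose library numbers lie 10 or 20 apart were matched here and are called same-number. This matching was made here, differs from the replicate numbers and was also used for the replicate block. Deviations from the group means correlated above 0.1 in 10 of 20 same-number pairs in knockout and 0 of 20 in wild-type cells, and in 3 of 142 pairs of different numbers. The closest library at another time had the same number for 34 of 50 libraries, a hint of pairing from the data. In set A this held for 13 of 15 knockout and 11 of 15 wild-type libraries. The 3 knockout libraries that stood apart by Trac are matched to each other in this way. They correlated at 0.372 between 0 and 2 h, 0.317 between 0 and 6 h and 0.517 between 2 and 6 h. As the labels name no pairs, the block stayed an alternative. The main tests over time treat libraries of the same number as independent. With a replicate block 28, 27 and 33 members were called at 2, 6 and 24 h against 0 h in knockout and 31, 31 and 28 in wild-type cells, and 0 in the interactions with time. A member without a call is not shown to be equal between genotypes.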
